A study of Homo sapiens with 9 samples.

Results

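The regions described here are stretches of open chromatin that were called in every peak list of Jurkat cells, and whose enrichment was low in the list labelled as non-stimulated (NS) cells with DMSO relative to the others. Peaks of the 4 lists were merged, and 10841 of 40703 merged regions on chromosomes 1 to 22, X and Y held a peak in all 4 lists. For each of these, the highest fold enrichment per list was taken, and the mean of the 3 other lists was divided by the NS DMSO value. The members are the 500 regions with the highest log2 of this ratio, and were thus chosen by these fold enrichment values, which are given below as a description.

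FAIRE-seq was performed on Jurkat clone E6-1, a human T-cell leukaemia line, in 9 samples with 1 library each, and the peak lists of 4 of them are described here. According to the labels, the lists came from NS cells and from stimulus-withdrawal (SW) cells, each pre-treated for 1 h with DMSO, the vehicle, or with 15 µM of the PKC inhibitor rottlerin. SW cells had been stimulated for 4 h with PMA and ionomycin, washed and cultured for 1 day, whereas the study's methods give a shorter stimulation. All libraries were compared with 1 total input library, and as there is 1 library per list no difference between lists has a replicate check or a p-value.

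The naming of the lists was uncertain. The study's methods describe peak calling in DMSO libraries only, in the NS, stimulated (ST), SW and re-stimulated (RS) states, and the lists merged into as many regions as those methods give for the DMSO libraries. The lists labelled rottlerin may thus hold DMSO libraries of other states, which was not tested. The lists are therefore named by their labels only, and nothing about rottlerin or about rest is read from them. The lists held 18977 (NS DMSO), 20132 (SW DMSO), 23835 (NS rottlerin) and 30409 (SW rottlerin) peaks, which covered 6.69, 7.12, 8.51 and 11.5 Mb. Their median fold enrichment was between 4.03 and 4.08, and read depth is unknown. Of 12 T-cell genes, 6, 6, 7 and 8 had a peak within 1 kb of a transcription start site (TSS) in these lists, with *CD3D*, *CD3E*, *CD247*, *CD28* and *LCK* in every list and *TRAC*, *CD2* and *CD7* in none. No list had a peak at more than 1 of 6 B-cell, 1 of 6 myeloid or 1 of 5 epithelial genes, and none had a peak at any of 5 erythroid genes.

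FAIRE recovers DNA that is not held by nucleosomes after cross-linking, so that active promoters and enhancers are enriched over sonicated input. Regions that are open in every state of a cell are often CpG-rich promoters, while enhancers away from genes tend to open with cell type or stimulus. AP1, a dimer of Fos and Jun family proteins that is induced when T cells are stimulated through PKC, binds the sequence TGACTCA at many such enhancers, and RUNX, GATA and ETS proteins bind others in T cells.

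The sequences below are the central 300 bp of 6 members, chosen by rank among members outside UTRs, 3 with and 3 without an AP1 site. The window of the member near *CA8*, which ranked above that near *CEP85L* and held an AP1 site, is not printed. All are the plus strand of GRCh37, read 5′ to 3′. In the first set, capitals mark TGACTCA or its reverse complement. The window near *NAE1* is chr16:66907212-66907511 in its promoter, that near *TGFB2* is chr1:218550615-218550914 in an intron, and that near *CEP85L* is chr6:119047147-119047446 in intergenic sequence.
NAE1: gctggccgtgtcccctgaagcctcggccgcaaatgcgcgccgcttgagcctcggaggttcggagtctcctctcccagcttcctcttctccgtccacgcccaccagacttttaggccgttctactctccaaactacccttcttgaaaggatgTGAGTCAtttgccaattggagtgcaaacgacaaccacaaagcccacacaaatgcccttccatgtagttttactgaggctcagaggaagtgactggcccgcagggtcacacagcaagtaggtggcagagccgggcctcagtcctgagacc
TGFB2: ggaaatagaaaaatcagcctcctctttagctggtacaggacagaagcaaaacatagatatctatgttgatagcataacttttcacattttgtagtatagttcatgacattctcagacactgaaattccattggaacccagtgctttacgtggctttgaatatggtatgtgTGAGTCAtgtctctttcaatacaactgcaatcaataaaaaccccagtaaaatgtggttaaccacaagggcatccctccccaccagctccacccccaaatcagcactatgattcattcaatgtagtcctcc
CEP85L: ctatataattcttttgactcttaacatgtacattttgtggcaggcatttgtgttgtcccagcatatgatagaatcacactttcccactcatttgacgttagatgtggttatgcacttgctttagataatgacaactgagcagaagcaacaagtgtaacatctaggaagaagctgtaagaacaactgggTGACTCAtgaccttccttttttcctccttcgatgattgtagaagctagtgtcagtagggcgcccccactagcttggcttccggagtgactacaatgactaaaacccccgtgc

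The second set held no AP1 site. Capitals mark a RUNX sequence (TGTGGT or TGCGGT on either strand), which 1 of these members held, near *HIVEP2* at chr6:143206645-143206944 in an intron. The windows near *TNFSF10* at chr3:172248127-172248426, upstream of the gene, and in an intron of *PGLYRP4* at chr1:153312253-153312552 held neither sequence.
TNFSF10: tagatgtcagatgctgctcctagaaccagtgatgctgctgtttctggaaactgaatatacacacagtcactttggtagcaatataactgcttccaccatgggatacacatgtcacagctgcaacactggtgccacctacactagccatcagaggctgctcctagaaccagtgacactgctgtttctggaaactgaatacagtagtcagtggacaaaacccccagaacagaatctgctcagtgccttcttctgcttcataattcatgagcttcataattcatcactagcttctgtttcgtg
PGLYRP4: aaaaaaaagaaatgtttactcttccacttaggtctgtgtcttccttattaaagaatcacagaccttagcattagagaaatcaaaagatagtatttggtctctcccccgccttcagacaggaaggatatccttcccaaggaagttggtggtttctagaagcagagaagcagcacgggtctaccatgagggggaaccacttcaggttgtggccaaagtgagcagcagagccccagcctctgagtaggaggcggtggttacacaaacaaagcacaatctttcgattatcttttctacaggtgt
HIVEP2: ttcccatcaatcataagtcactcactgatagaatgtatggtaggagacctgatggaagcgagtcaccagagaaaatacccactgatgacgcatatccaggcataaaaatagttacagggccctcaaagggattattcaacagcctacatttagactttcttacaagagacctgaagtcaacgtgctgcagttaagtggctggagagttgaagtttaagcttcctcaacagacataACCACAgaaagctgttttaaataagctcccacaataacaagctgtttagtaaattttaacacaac

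Over the 500 members, the median fold enrichment over total input was 3.47 in NS DMSO (lowest 2.24, highest 5.91). It was 4.89 (2.74 to 9.33) in SW DMSO, 5.14 (2.65 to 9.22) in NS rottlerin and 5.74 (3.45 to 10.4) in SW rottlerin. Over all 10841 regions the medians were 4.44, 4.38, 4.64 and 4.81, so the members' medians lay below those of all constitutive regions in NS DMSO and above them in the other lists. The median log2 ratio of the members was 0.56 (range 0.46 to 1.31), a 1.47-fold difference.

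The members were weak peaks in NS DMSO. For 468 members (93.6%) the NS DMSO value lay under the median of all constitutive regions in that list. The median −log10 q was 3.47 in NS DMSO against 9.16, 10.6 and 12.8 in SW DMSO, NS rottlerin and SW rottlerin. Over all constitutive regions it was 8.22, 7.93, 9.29 and 10.1 in the same order. The stretch called in NS DMSO had a median of 251 bp against 336, 330 and 407 bp. Over all constitutive regions the medians were 300, 305, 321 and 366 bp. The rule chose members by low NS DMSO values, so the q-values and lengths are given as a description only. The strongest peaks of the 4 lists shared at least 1 base in 495 members (99%) and in 99.3% of all constitutive regions. More than 1 peak in some list was held by 7 members (1.40%) and by 1.62% of all.

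**Figure D1:**
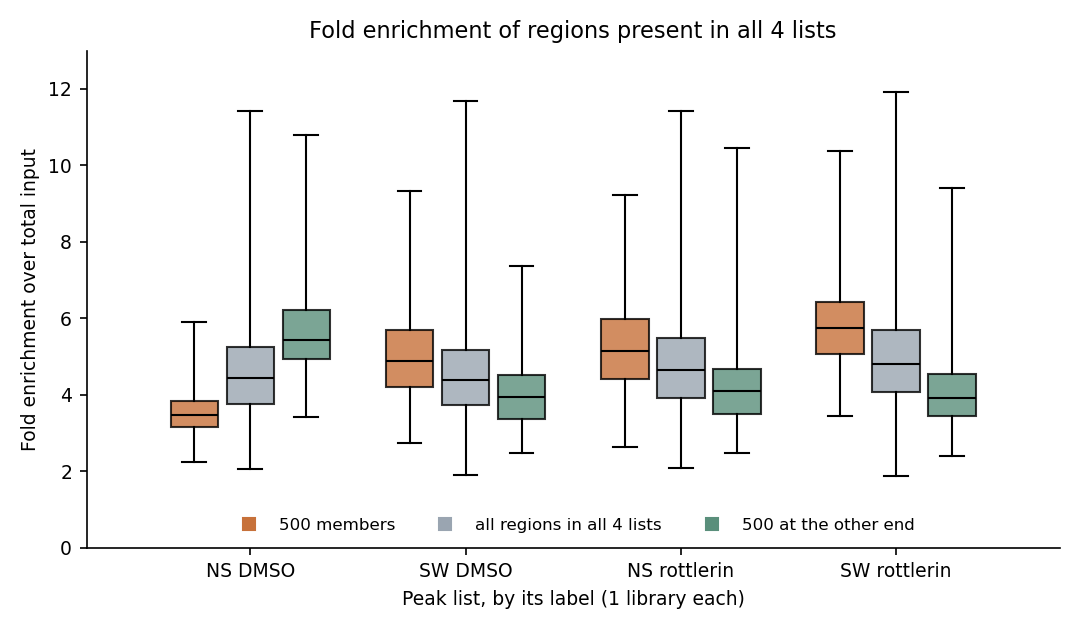
Fold enrichment over total input (vertical axis) in each list (horizontal axis) for the 500 members, all 10841 regions in all 4 lists, and the 500 regions at the other end of the ranking. Boxes span the middle 50% with the median as a line, and whiskers reach the lowest and highest values; the members' medians are 3.47, 4.89, 5.14 and 5.74.

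The lists did not contribute equally. SW rottlerin, the list with most peaks, held the highest value in 288 members, NS rottlerin in 139 and SW DMSO in 73. The lists had the same order over all constitutive regions. There the median log2 over NS DMSO was 0.107 in SW rottlerin, 0.055 in NS rottlerin and −0.022 in SW DMSO. The NS DMSO value was the lowest in 478 members (95.6%) and in 3495 of all 10841 regions (32.2%), and in the other 22 members it lay above that of SW DMSO or NS rottlerin. A value at least 1.5-fold over NS DMSO was reached by 153 members (30.6%) in SW DMSO, where the share over all constitutive regions was 1.69%. The corresponding counts were 232 (46.4%, against 3.16%) in NS rottlerin and 375 (75%, against 5.06%) in SW rottlerin. All 3 lists passed this fold in 67 members (13.4%), and in 0.618% of all constitutive regions; the rule used these contrasts, so nothing is read from the counts.

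The limit fell within a continuous distribution. The last members inside, in introns of *FSIP1* and *PCYT1A* and near *TSHZ3*, and the first regions outside, near *RDH14*, *NFE2L3* and *NR5A2*, all had a ratio of 1.37. In the *FSIP1* region the fold enrichment was 2.89 in NS DMSO, 4.02 in SW DMSO, 3.97 in NS rottlerin and 3.92 in SW rottlerin. Outside the limit, the *RDH14* region had 3.35, 3.51, 4.42 and 5.85 in the same order. The *NFE2L3* region followed with 4.03, 5.80, 5.36 and 5.42.

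Among the 20 highest-ranked members, the NS DMSO values (2.74 to 4.72) lay below those of the 3 other lists in 20 of 20. Of these, 15 were in introns, 2 in intergenic sequence, 2 within 1 kb of a TSS, and 11 held an AP1 site. Values below are given in the order NS DMSO, SW DMSO, NS rottlerin and SW rottlerin, and each region is named by the gene of the nearest coding TSS, which need not be the gene it acts on.

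The highest-ranked member lay 203 bp upstream of *NAE1*, which encodes the regulatory subunit of the NEDD8-activating enzyme, at chr16:66907120-66907603. Its fold enrichment was 3.43, 8.75, 7.94 and 8.76, a log2 ratio of 1.31, and the 3 other lists lay close together. It was followed by a region 7.01 kb upstream of *TNFSF10*, the gene of the death ligand TRAIL and one of the memory-responsive genes of the study (chr3:172247743-172248811). The values there were 3.46, 5.34, 7.88 and 9.65, so that the lists differed among themselves more than at *NAE1*. A region in an intron of *PGLYRP4*, a peptidoglycan recognition protein gene, had 3.57, 5.67, 9.05 and 8.11, with the highest value in NS rottlerin.

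In an intron of *HIVEP2*, which encodes a zinc-finger protein that binds κB-like sequences, the values were 3.13, 6.71, 6.35 and 6.58 (chr6:143206561-143207029). The 3 higher lists were nearly equal there. The region in an intron of *TGFB2*, the gene of a TGF-β cytokine, had 3.32, 6.70, 5.26 and 8.41 (chr1:218550536-218550993), and an intronic region of *CA8*, a carbonic anhydrase-related gene, had 2.99, 5.12, 4.86 and 7.93. Both held an AP1 site and were highest in SW rottlerin. The intergenic region 16.1 kb upstream of *CEP85L*, a centrosomal protein gene, held one too and had 3.16, 6.18, 5.69 and 6.98 (chr6:119047070-119047524).

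Near a start site, the region in the 5′ UTR of *SLC25A45*, a mitochondrial carrier family gene, had 2.91, 6.59, 4.92 and 5.79, the highest in SW DMSO. In introns of *TRPM4*, a calcium-activated cation channel gene, and *SVIL*, which encodes the actin-binding supervillin, the values were 3.09, 5.24, 5.05 and 8.03, and 3.54, 6.84, 6.43 and 7.38. The strongest of the 20 in absolute terms was an intergenic region 526 kb from *KIF20B*, a kinesin gene, with 4.72, 8.80, 7.91 and 10.4 (chr10:91986981-91987424). It was the only 1 of the 20 whose NS DMSO value exceeded the constitutive median of 4.44.

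The next members lay in introns of *HSD17B12*, an enzyme of fatty acid elongation (3.38, 4.75, 6.03 and 8.60), and *MCCC2*, an enzyme of leucine breakdown (3.45, 6.14, 6.88 and 6.55). Those in introns of *FAM53B* (2.90, 4.89, 5.75 and 5.84) and *OSBPL3*, an oxysterol-binding protein gene (3.06, 5.16, 5.90 and 6.23), held AP1 sites, as did the *MCCC2* region. An AP1 site was also present in an intron of *ETV6*, the gene of an ETS-family repressor rearranged in leukaemias, with 2.97, 5.42, 6.02 and 5.27 (chr12:11872714-11873122).

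Toward the end of the 20, the region 67.7 kb upstream of *CDK6*, a kinase of G1 progression, had 3.24, 6.98, 5.46 and 5.55, the highest in SW DMSO, and held no AP1 site. The region 8.54 kb upstream of *RIPOR2*, which encodes an inhibitor of RhoA, had 3.80, 7.23, 5.74 and 8.05, and that in an intron of *ITGAE*, the integrin αE (CD103) of epithelium-homing T cells, had 2.74, 5.07, 4.63 and 5.43 (chr17:3668663-3669172). Both of these held an AP1 site.

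**Figure D2:**
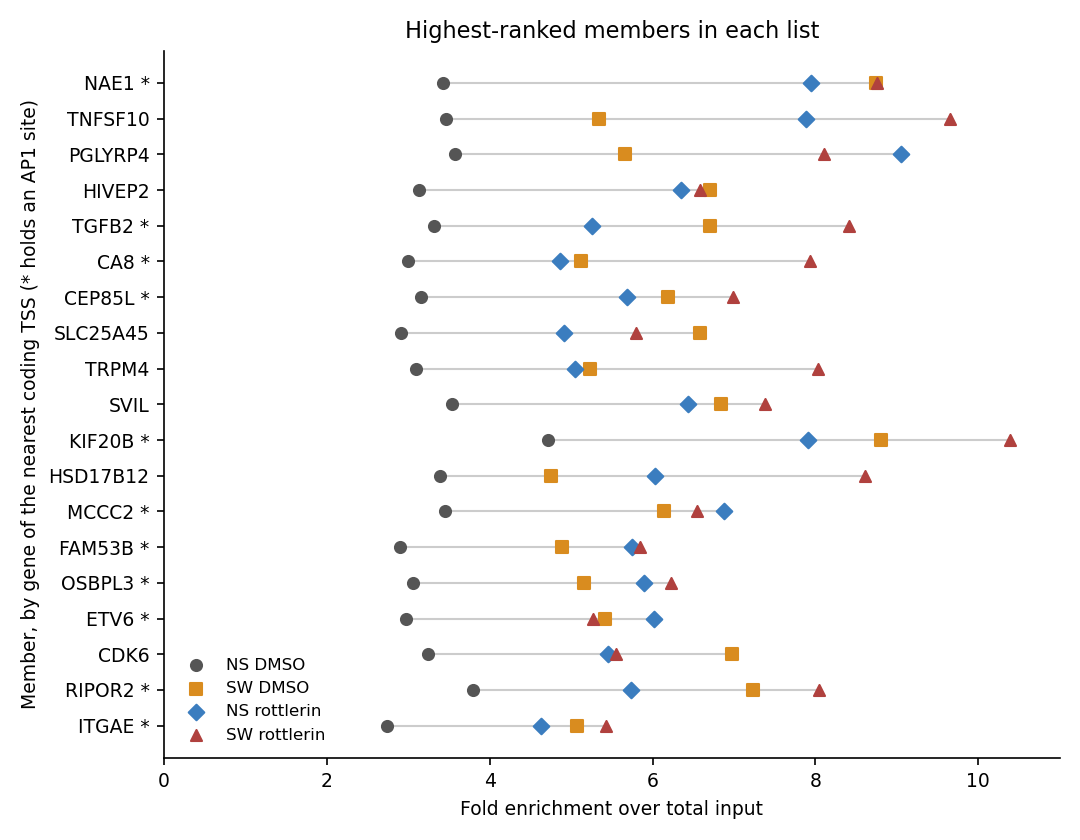
Fold enrichment over total input (horizontal axis) of 19 of the 20 highest-ranked members (vertical axis, by gene of the nearest coding TSS; asterisks mark an AP1 site) in each of the 4 lists. The NS DMSO points lie between 2.74 and 4.72, to the left of the 3 others in each member drawn, and 11 carry an asterisk.

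The members lay mostly away from start sites. The mid-point of 156 members (31.2%, Wilson 95% interval 27.3–35.4) lay within 1 kb of a TSS, against 61.8% (60.8–62.7) of all constitutive regions. The share was 28.3% (26.7–30.0) in the 2883 regions with a peak in every list but NS DMSO and 32.0% in all 40703 merged regions. When only regions at or above the NS DMSO median were ranked, 59.2% of the 500 highest lay within 1 kb of a TSS. Introns held 58.8% (54.4–63.0) of members and 42.2% of all, intergenic sequence 14.0% (11.2–17.3) and 7.68%, and promoters, up to 1 kb before a TSS, 8.80% (6.62–11.6) and 21.4%. Of all merged regions, 55.8% lay in introns, 14.3% in intergenic sequence and 9.07% in promoters. From mid-point to nearest TSS, the median distance came to 4986 bp in members and 210 bp over all constitutive regions. It was 4336 bp in all merged regions and 4888 bp in regions in all lists but NS DMSO. These intervals cover counting over regions only, and regions are not replicates of a condition.

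In position the intervals of members and of the other end of the ranking overlapped, though more members lay near start sites. Of the 500 constitutive regions with the lowest ratio, 24.6% (21.0–28.6) lay within 1 kb of a TSS, 57.8% in introns and 14.0% in intergenic sequence. The median GC content of the central 300 bp was 47.3% in members, 46.0% at the other end and 57.0% over all. It was 46.3% in all merged regions and also in regions in all lists but NS DMSO. Over 50% GC together with an observed-to-expected CpG ratio over 0.6, as in CpG islands, was found in 17.4% (14.3–21.0) of members, 15.6% (12.7–19) of the other end and 50.2% of all. Both ends of the ranking were thus poor in CpG-rich start sites, and the middle was rich in them.

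AP1 differed between the ends. The sequence was present in the central 300 bp of 138 members (27.6%, 23.9–31.7), against 6.70% (6.24–7.18) of all constitutive regions and 5.40% (3.74–7.74) of the other end. Over all 40703 merged regions the share was 13.2%. Of the 2883 regions that had a peak in the 3 other lists and none in NS DMSO, 29.8% (28.2–31.5) held the sequence. The intervals of this share and of the share in members overlapped. This closeness depended on the number of regions kept as members. The AP1 share was 39.6% in the 250 highest and 21.5% in the 1000 highest, both outside 28.2–31.5.

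Over 1 kb from a TSS, 118 of 344 members (34.3%, 29.5–39.5) held an AP1 site, against 12.5% (11.5–13.5) of all constitutive regions and 6.10% (4.10–8.99) of the other end. Within 1 kb of a TSS the shares were 12.8% (8.45–19), 3.12% (2.73–3.57) and 3.25% (1.27–8.06). Regions without an NS DMSO peak had 34.8% and 17.1% at the same distances.

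**Figure D3:**
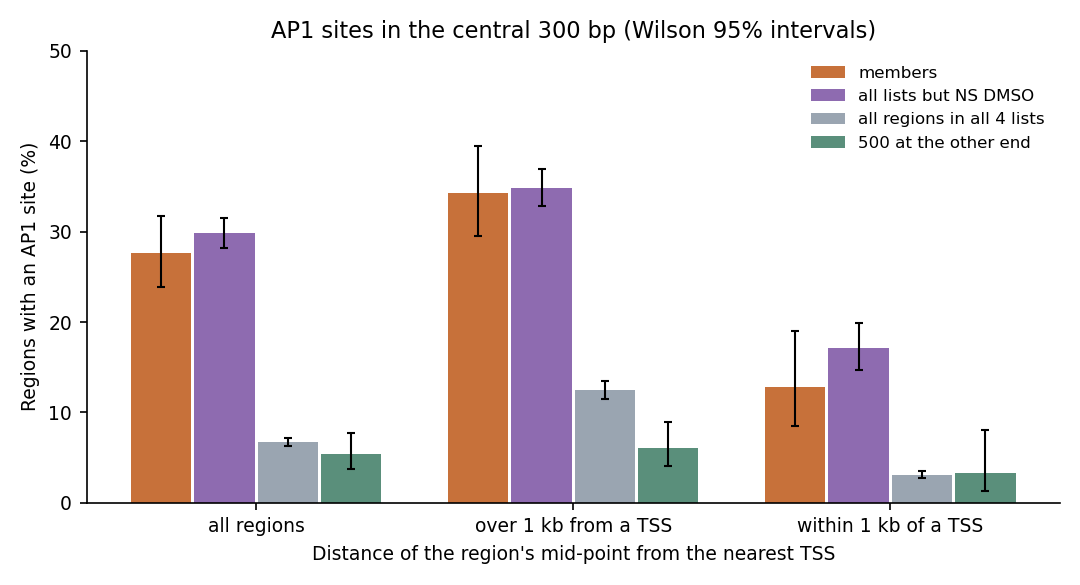
Share of regions with an AP1 site in the central 300 bp (vertical axis, %) by distance of the mid-point from the nearest TSS (horizontal axis), with bars for 4 groups of regions and Wilson 95% intervals. Members (27.6%, 34.3% and 12.8%) stand above both other groups, and their intervals overlap those of regions in all lists but NS DMSO. For all distances together, that overlap depends on the number of regions kept as members (39.6% in the 250 highest, 21.5% in the 1000 highest).

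Since members were weak in NS DMSO, AP1 shares were also compared at like NS DMSO values, a comparison chosen after seeing the data. Between 3.16 and 3.84, the middle 50% of the members, AP1 sites were in 67 of 250 members (26.8%, 21.7–32.6) and in 141 of 1986 other constitutive regions (7.10%, 6.05–8.31). Over 1 kb from a TSS the shares were 30.8% (24.4–38.1) and 12.9% (10.7–15.5). In the same window, 31.2% of members and 61.0% of the others lay within 1 kb of a TSS, and the bHLH sequence CACCTG was in 18.8% and 19.9%. The window was cut from a value that the rule used. When only regions at or above the NS DMSO median were ranked, the 500 highest had an AP1 share of 11.4%, against 4.98% of all regions so ranked.

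Along the ranking, the AP1 share was 27.6% in the first 500 regions, 15.4% (12.5–18.8) in the next 500 and 10.8% (8.37–13.8) in the third bin. In the last 341 regions it was 5.28% (3.36–8.19). Within the members it was 39.6% among the 250 highest. CACCTG, a sequence of bHLH proteins such as E2A and HEB, had another course, with 19% (15.8–22.7) in members and 32.4% (28.4–36.6) at the other end, where 20% of all constitutive regions held it. The other E-box searched, CAGCTG, was in 17.2% (14.1–20.8) of members, 16.7% of all constitutive regions, 19.8% (16.5–23.5) of the other end and 17.1% of all merged regions, and these intervals overlapped. CACCTG was in 21.4% of all merged regions.

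**Figure D4:**
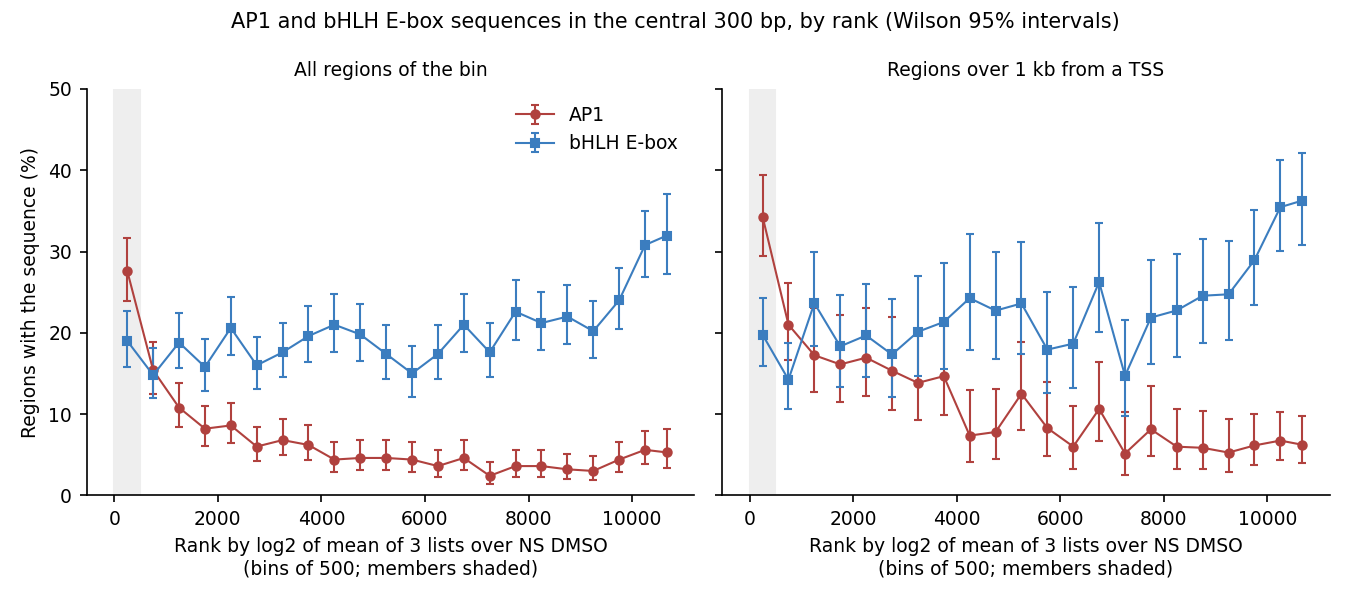
Share of regions (vertical axis, %) with an AP1 site or with the bHLH E-box CACCTG, in bins of 500 regions along the ranking (horizontal axis, highest ratio at the left, members shaded), for all regions and for those over 1 kb from a TSS, with Wilson 95% intervals. AP1 stands at 27.6% and 34.3% in the first bin, and CACCTG reaches 32.0% and 36.3% in the last.

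The 138 members with AP1 held 150 sites, 12 members (2.40%) having at least 2. The same was found in 0.406% of all constitutive regions and 1.37% of all merged regions. In regions in all lists but NS DMSO the share was higher, at 4.44%. Introns held 92 of the 138 (66.7%, 58.4–74.0), against 58.8% (54.4–63.0) of all members, and intergenic sequence held 23 and promoters 4. Within 50 bp of the mid-point lay 67 sites (44.7%, 36.9–52.7), against 39.5% (35.7–43.4) of the 621 sites in the rest of the constitutive regions. With 1 flanking base on each side, ATGACTCAT was the most frequent form (21 sites, 14.0%), followed by ATGACTCAC (20 sites) and GTGACTCAT (16 sites). The flanks were not counted in other regions.

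Members with and without AP1 started from like values in NS DMSO, with medians of 3.50 and 3.46. In SW DMSO the median log2 over NS DMSO was 0.60 (0.55 to 0.64) in the 138 with a site and 0.44 (0.41 to 0.47) in the 362 without. The corresponding medians were 0.60 (0.54 to 0.67) and 0.55 (0.52 to 0.58) in NS rottlerin and 0.74 (0.70 to 0.80) and 0.67 (0.66 to 0.70) in SW rottlerin. The ranges in parentheses are binomial 95% intervals of a median over regions. The members were chosen by these same ratios, so the medians are a description and no test. All 3 lists lay above NS DMSO in 136 of the 138 and in 342 of the 362.

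Of the other sequences among 17 families searched on both strands, RUNX (TGTGGT or TGCGGT) was in 46.8% (42.5–51.2) of members, 34.2% of all constitutive regions and 37.9% of all merged regions. Over 1 kb from a TSS its shares were 53.8% (48.5–59.0) in members and 52.8% (51.3–54.3) in all, and at the other end 64.2% (59.2–68.9). For GATA factors, AGATAA or its variant TGATAA was in 35.2% (31.1–39.5) of members and 19.8% of all, and over 1 kb from a TSS in 43.6% (38.5–48.9) and 35.9% (34.4–37.4). Of all merged regions, 31.5% held it, and 39.2% (38.7–39.8) of those over 1 kb from a TSS. Away from start sites, the intervals of members and of all constitutive regions were apart for GATA and overlapped for RUNX. For GATA, the interval of members overlapped that of all merged regions at this distance.

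ETS sequences (CCGGAA) were in 10.2% (7.84–13.2) of members and 20.7% of all, but in 5.23% (3.34–8.12) and 7.26% (6.51–8.09) over 1 kb from a TSS. For NFAT (TGGAAA) the shares were 29.2% (25.4–33.3) and 20.4%, and over 1 kb from a TSS 30.8% (26.2–35.9) and 27.1% (25.8–28.5). NF-κB (GGNNTTNCC) was in 18.2% (15.1–21.8) and 17.1%. Of all merged regions, 10.5% held the ETS, 27.9% the NFAT and 15.5% the NF-κB sequence. None of these differed between members and all constitutive regions beyond the intervals once start sites were set aside, NF-κB included (16.0% and 14.7%). AP1 and RUNX occurred together in 76 members (15.2%, 12.3–18.6) and in 3.24% of all constitutive regions. The joint share was 12.9% (11.7–14.1) in regions in all lists but NS DMSO and 5.10% in all merged regions. Whether it exceeded what the single shares give was not tested.

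Split by the list that was highest, GATA was in 58 of the 139 members highest in NS rottlerin (41.7%, 33.9–50.0), in 103 of 288 in SW rottlerin (35.8%, 30.4–41.5) and in 15 of 73 in SW DMSO (20.5%, 12.9–31.2). AP1 shares were 26.6% (20–34.5), 26.4% (21.6–31.8) and 34.2% (24.4–45.7) in the same order, and their intervals overlapped. Over all constitutive regions, which were not split in this way, GATA was in 19.8% and AP1 in 6.70%. Nothing is read from the GATA shares of the split. The number of members in SW DMSO was the smallest, and the split used the same values as the rule.

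The genes around the members were counted in lists of T-cell genes, a region counting when it lay within 50 kb of a TSS of a gene of the list. Of 75 activation-induced genes, 6 had a member, and these 6 regions were 1.20% (0.551–2.59) of members against 1.28% of all constitutive regions. At *TNFAIP3*, which encodes the NF-κB inhibitor A20, the region 102 bp from the start site had 3.16, 4.62, 6.06 and 6.53 (chr6:138187983-138188514) and held an AP1 site. The region in the 3′ UTR of *BHLHE40*, a bHLH repressor gene of activated T cells, held 2 and had 3.77, 6.44, 5.26 and 5.36.

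At the early activation marker *CD69*, the region 563 bp from a TSS had 3.35, 4.76, 5.32 and 4.91. In an intron of *ATF3*, a stress-induced factor of the AP1 group, the values were 2.83, 4.01, 3.53 and 4.51. Neither held an AP1 site. Of the 16 memory-responsive genes named by the study, *TNFSF10* and *FASLG* had a member, which were 0.400% (0.110–1.45) of members against 0.212% of all. The *FASLG* region, 11.8 kb from the start of the gene of the Fas ligand, had 3.38, 4.76, 3.26 and 6.02, with NS rottlerin below NS DMSO (chr1:172616222-172616703).

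Members near 8 of 49 matched T-cell receptor and proximal signalling genes numbered 10 (2.00%, 1.09–3.64, against 1.23%). The region in an intron of *SLA*, an adaptor that dampens receptor signalling, had 2.79, 3.59, 4.51 and 5.46 and held an AP1 site. In an intron of *FYN*, a Src-family kinase, the values were 3.40, 4.90, 4.47 and 5.72, and in the 5′ UTR of *PTPRC*, the gene of the phosphatase CD45, they were 3.82, 4.97, 7.14 and 4.73. The *PTPRC* region was highest in NS rottlerin. The intergenic region 34.8 kb from *CD28*, the co-stimulatory receptor gene, had 3.81, 5.24, 5.46 and 6.05. A second *FYN* region and regions near *VAV3*, *PLCG1*, *MALT1* and *LCP2* made up the rest.

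Transcription factors of the T lineage or of T-cell leukaemia had 9 members near 11 of 42 genes (1.80%, 0.950–3.39, against 0.969%), as 1 region lay near 3 STAT genes. After the *ETV6* region above came one 956 bp from a start site of *TCF12*, the gene of the bHLH protein HEB, with 2.77, 4.80, 5.39 and 4.57. The region in an intron of *STAT3*, within 50 kb of *STAT5A* and *STAT5B*, had 3.50, 3.79, 6.39 and 5.80. In an exon of a transcript 595 bp from a start of *HES1*, a Notch target gene, the values were 3.36, 4.96, 4.77 and 5.33. None of these 3 held an AP1 site, and the other 5 lay near *ERG*, *RUNX3*, *ELK3*, *IKZF1* and *BACH2*.

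Adhesion, homing and cytoskeleton genes had 8 members near 6 of 47 genes (1.60%, 0.813–3.13, against 1.03%). Within 50 kb of a start site, *ITGAE* had 3 members out of 8 constitutive regions. Beside the one at rank 20, a region 7.23 kb from a start site of *ITGAE* had 3.50, 5.20, 6.25 and 7.10 (chr17:3614211-3614668). Another, in an intron 4.56 kb from a start site, had 3.23, 5.63, 3.75 and 5.53 (chr17:3699746-3700104). All 3 held an AP1 site. The region 2.49 kb from a start of *ANXA1*, the gene of the phospholipid-binding annexin A1, had 3.64, 6.20, 4.80 and 5.85 and held none.

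Besides *ITGAE*, 3 members out of 4 constitutive regions lay within 50 kb of start sites of *NLK*, the gene of the Nemo-like kinase. The same counts were found at *COLGALT1*, a collagen galactosyltransferase gene. The *NLK* region at rank 21 had 3.34, 6.95, 4.92 and 6.54, that at rank 69 had 3.49, 4.34, 7.65 and 5.69, and that at rank 247 had 3.51, 3.26, 6.87 and 5.42, with SW DMSO below NS DMSO at the last. The *COLGALT1* regions had the nearest coding start sites of *PGLS* (4.16, 5.82, 5.49 and 6.42), *NIBAN3* (4.21, 5.75, 5.91 and 6.03) and *COLGALT1* itself (3.08, 4.32, 3.77 and 4.74). None of these 6 held an AP1 site, where 27.6% of all members did.

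Ribosomal protein and ribosomal protein-like genes had 2 members near 2 of 88 genes, 0.400% (0.110–1.45) of members against 1.73% of all constitutive regions. The regions lay 31.4 kb from *RPS27L* (3.47, 4.25, 4.88 and 5.46) and 20.5 kb from *RPL7A* (3.19, 5.15, 3.92 and 4.18). The first had its nearest coding start site at *RAB8B*, and the second lay in an intron of *SURF4*. The gene-list shares were not compared away from start sites, where more of the members lay. For the other lists the share of members had an interval that included the share of all constitutive regions. Around the members, 77.4% (73.5–80.8) had a region without an NS DMSO peak within 50 kb, against 73.2% (72.3–74.0) of all constitutive regions. Over 1 kb from a TSS these shares were 78.5% (73.8–82.5) and 77.9% (76.6–79.1). Of all neighbours within 50 kb, 55.4% around members and 49.2% around all constitutive regions had no NS DMSO peak, and 57.6% and 52.9% over 1 kb from a TSS.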

How the data were processed

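FAIRE-seq libraries of Jurkat cells were compared with total input, and deposited peak lists of 4 of 9 samples were used. According to the study's methods, adapters were trimmed with cutadapt, reads were mapped to hg19 with Bowtie2, duplicates were removed with Picard, and broad peaks were called per library with MACS2 at a stated q-value limit of 0.05. In the lists, 1014 of 93353 peaks (1.09%) had a −log10 q under 1.30, the value of that limit, down to 1.01, among them the NS DMSO peaks of 3 members. The deposited columns are a score (10 times the −log10 q value, cut to a whole number), the fold enrichment over total input as a ratio, and −log10 p-value and −log10 q-value, all computed by the authors. The fold enrichment depends on the input at weak regions. Counts of reads and depth are unknown from these lists.

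Overlapping or touching peaks were merged, and the highest fold enrichment per list was kept. Regions were placed by their mid-point with GENCODE release 44 on GRCh37, with UTRs taken first, then exons, introns, promoters (up to 1 kb before a TSS), upstream sequence (up to 10 kb) and the rest as intergenic. Sequences were searched on both strands in the central 300 bp. Merging, ranking and searching were run on simulated data. There, 200 of 200 regions raised 2-fold in 3 lists and 500 of 500 planted sites were found. The members' median ratio was smaller, at 1.47. The simulation therefore checked the code, and not how well regions like the members are found. Shares have Wilson 95% intervals, which cover counting only, and no test was run with 1 library per list. The work was done in Python 3.11.15 with pandas 2.3.3, numpy 2.4.6, matplotlib 3.10.9 and scipy 1.17.1.

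The members and the gene lists were chosen with earlier results of these data known. Named genes are those of the 20 highest-ranked members, of 3 regions on each side of the limit, of the 4 highest-ranked members for each gene list, and genes with at least 3 members within 50 kb of any start site. The remaining members of the T-cell receptor and transcription factor lists were named after their values were seen. Those of the activation-induced list, apart from *FASLG*, and of the adhesion list were not named. Of the 20 highest-ranked members, 1 is counted but not reported here by name. Primer regions of the study were not used here. Alternatives covered how lists were combined, scaled or left out, the ranking column, the number kept, the window and the definition of start-site distance.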

Additional observations from a re-analysis of the deposited data

How the results depend on the processing

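No paired analysis was possible because each list is 1 library and no test was run. With 1 of the 3 other lists left out in turn, 389 to 393 of the 500 members were shared, the median log2 ratio was 0.55, the AP1 share was 25.0 to 29.2%, the RUNX share 46.0 to 46.4%, the ETS share 8.80 to 11.2% and the share within 1 kb of a TSS 29.4 to 32.0%. The lowest of the 3 values gave a median log2 ratio of 0.53 and a median NS DMSO fold enrichment of 3.54. Ranking on −log10 q gave 3.32 for the latter and 76.8% in introns or intergenic sequence.

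Only regions at or above the NS DMSO median gave the largest change of the alternatives run. Of the main members 32 were shared, the median log2 ratio was 0.28, NS DMSO fold enrichment 4.93 and GC content 56.0%. Shares were 59.2% within 1 kb of a TSS, 49.4% in introns or intergenic sequence, 11.4% with AP1, 26.2% with ETS and 32.6% with RUNX. The AP1 share was 4.98% over all 5421 regions so ranked, and 5.40% at their other end. The cause was not tested.

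The 250 highest, all members by construction, had a median log2 ratio of 0.66, a GC content of 46.3% and 20.4% within 1 kb of a TSS. Introns or intergenic sequence held 80.8% of them, and 39.6% had AP1 and 6.80% ETS. The 1000 highest had 0.46, an NS DMSO value of 3.59, 48.3% GC, 37.5% within 1 kb and 21.5% with AP1. A 500 bp window gave 34.4% with AP1, 14.6% with ETS and 58.6% with RUNX. Placing promoters first gave 63.6% in introns or intergenic sequence, and a limit of 2000 bp gave 37.4% near a TSS. In all, 84 of 114 values moved by less than their interval or, for shared members, stayed within 1.5 times, among them those for regions whose strongest peaks share a base, a setting chosen after seeing the data. The shared members of the 250 and 1000 highest were fixed by the number kept, so this tally is a description only.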
